A study of Mus musculus with 8 samples.

Results

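The comparison set the induced pluripotent stem cell (iPSC) preparation labelled PM2i-iPSC, made with purmorphamine, against the preparation labelled OM2i-iPSC, made with an oxysterol. It rests on 2 of the 8 arrays of the series, 1 for each preparation. Genes were taken by the name the array gives them. A gene entered when it lay on an autosome and the scanner software set at least 1 of its probes well above background in either preparation, which left 19466 of the 26537 autosomal gene names on the array. Each value rests on 1 array, so there is no replicate error, no test and no p-value.

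Both preparations were described in the labels as mouse embryonic fibroblasts (MEF) treated with combinations that held the named compound and afterwards given 2i/LIF. What else the combinations held, the doses, the times, the strain of the fibroblasts and whether a preparation was 1 clone are not stated in the labels. Other Agilent arrays of the same design served for orientation, with 1 array each. They were MEF and embryonic stem (ES) cells from blastocysts of 129/Ola mice. The PM2i-iPSC array shared its slide with the ES array, and the OM2i-iPSC array was on another slide. Compound, slide and preparation therefore cannot be told apart in any difference below.

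Purmorphamine and certain oxysterols both activate Smoothened, the membrane protein that passes on the Hedgehog signal once the receptor Patched is relieved. Oxysterols are also known as ligands of the liver X receptors and as inhibitors of the processing of SREBP factors, which drive the genes of cholesterol synthesis. The 2i medium holds inhibitors of MEK and GSK3. Inhibition of GSK3 stabilises beta-catenin, the effector of Wnt signalling, and LIF acts through Stat3. In mouse pluripotent cells the Dlk1-Dio3 imprinted domain on chromosome 12 carries the long noncoding RNAs Meg3 (called Gtl2 on the array), Rian and Mirg, which are transcribed from the maternal chromosome and host many small RNAs.

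Wide gaps between the preparations lay in that domain and in the Wnt target Lef1, each on several probes except Mirg, which has 1. The 60-base oligonucleotides on the array that gave those values are shown here, because each is a separate reading of its RNA. Coordinates are those of the MEF file (build mm7), all on the plus strand.
Gtl2, chr12:107082578-107082637: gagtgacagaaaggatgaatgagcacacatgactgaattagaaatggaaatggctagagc
Gtl2, chr12:107083918-107083977: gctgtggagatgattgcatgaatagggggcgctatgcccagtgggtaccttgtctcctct
Gtl2, chr12:107092697-107092756: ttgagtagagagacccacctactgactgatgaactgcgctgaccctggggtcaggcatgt
Rian, chr12:107172103-107172162: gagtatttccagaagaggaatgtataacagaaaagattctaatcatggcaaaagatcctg
Rian, chr12:107180614-107180673: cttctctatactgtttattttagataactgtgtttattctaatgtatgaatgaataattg
Mirg, chr12:107261346-107261405: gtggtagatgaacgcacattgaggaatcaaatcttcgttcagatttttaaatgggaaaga
Lef1, chr3:131041424-131059585: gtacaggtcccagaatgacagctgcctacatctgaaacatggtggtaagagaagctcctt
The Lef1 oligonucleotide covers 18162 bases of genome and so reads spliced RNA across an exon junction. The 3 domain genes are annotated as long noncoding RNAs in RefSeq, where 1 miRNA hairpin lies inside Meg3, 3 inside Rian and 10 inside Mirg.

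Levels below are log2 of the processed signal minus the array's 75th percentile, so that 0 is the signal of that percentile. A level is set only against the same probe on another array. Between 63.4% and 72.8% of the 43379 non-control spots were well above background on the 4 Agilent arrays. On the PM2i-iPSC array no signal under 147 was well above background and on the OM2i-iPSC array none under 142, which is a level of -4.59 and -4.60. Where a preparation was not well above background, or the brighter spot was saturated, the fold is given as "at least". Probes printed several times on an array had a spot SD of 0.25 (146 probes, PM2i-iPSC) and 0.21 (169 probes, OM2i-iPSC), or 0.32 for a difference. The scanner software's own error of a difference was near 0.20 for bright probes. For genes not above background in 1 preparation it was often larger, such as 1.44 for Dkk1, Mirg and Rian.

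Of the 19466 genes, 2437 (12.5%) were at least 2-fold higher in PM2i-iPSC and 3308 (17.0%) were at least 2-fold lower. At 4-fold 668 (3.43%) were higher and 848 (4.36%) lower. Dim genes made up much of this. Among the 6489 genes of lowest mean level 18.5% were higher and 26.3% lower, against 5.33% and 7.03% among the 6489 brightest. A 2-fold gap on its own was therefore common, and on a second probe it often failed: of 583 genes higher on their brightest probe and measured on another, 36.7% were 2-fold higher on another probe and 15.4% were 2-fold lower there with none higher. For the 765 lower genes these shares were 39.1% and 15.8%. Agreement of at least 2 probes, with none 2-fold the other way, was met by 295 of 6035 genes with several measured probes (4.89%) in the higher direction and by 336 (5.57%) in the lower direction. These shares are the background against which the gene groups below should be read.

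**Figure D1:**
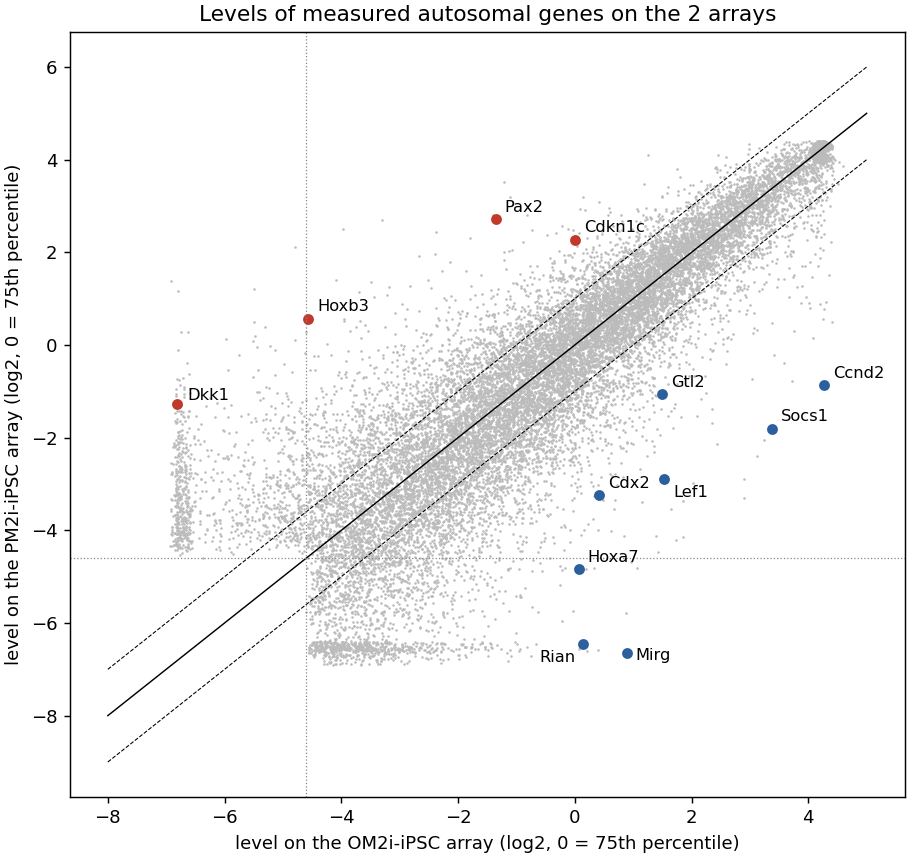
Levels of the 19466 measured autosomal genes (grey points) on the OM2i-iPSC array (x axis) and the PM2i-iPSC array (y axis), in log2 units from the 75th percentile of each array; the solid line marks equal levels, dashed lines a 2-fold gap and dotted lines the lowest level well above background. Named genes higher in PM2i-iPSC are red and those lower are blue: Lef1, Mirg, Rian and Ccnd2 lie far below the line and Dkk1, Pax2 and Hoxb3 far above it.

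Both arrays carried the pluripotency programme that their labels name. Of 12 measured core pluripotency genes none was 2-fold apart on its brightest probe, although saturated spots such as those of Nanog and Sall4 could not show a gap. Pou5f1 (Oct4), the central pluripotency factor, had a level of 3.21 in PM2i-iPSC, 2.66 in OM2i-iPSC, 3.65 in ES cells and -6.66 in MEF. Sox2, its partner on DNA, had levels of 2.46, 2.09, 2.87 and -1.16 in the same order. Nanog, on its only probe, was saturated on both arrays and gives no fold. Sall4 was saturated on its brightest probe, and its other probe was 2.01-fold lower in PM2i-iPSC (-1.37 against -0.36). The fibroblast list had a summed linear level (in units of the 75th percentile) of 38.1 in PM2i-iPSC and 47.4 in OM2i-iPSC, against 47.7 in ES cells and 337 in MEF. Of its 21 measured members 2 were higher and 4 lower in PM2i-iPSC, and Lum, Postn, Fap and Col6a1 were not above background in either. Of 9 fibroblast markers 7 were above background in each preparation. They included Col1a2 (1.04 in PM2i-iPSC, 1.56 in OM2i-iPSC and 5.16 in MEF) and Thy1 (0.78, 0.17 and 4.77 in the same order). Gata6, a primitive endoderm factor, was saturated in both preparations (levels 4.30 and 4.09) and stood at 4.32 in ES cells and 4.50 in MEF, so its brightest probe separates none of the 4 populations.

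Wnt targets were mostly lower in PM2i-iPSC. Of 12 measured targets 6 were 2-fold lower (50%) and 1 was higher, and 5 of the 17 on the array were not above background in either preparation. Their median difference was -1.06, against -0.08 over all genes. Of the lower targets, Axin2 and Nkd1 were not above background in PM2i-iPSC and entered through OM2i-iPSC alone. They could therefore not come out higher. Lef1, a DNA-binding partner of beta-catenin and itself a Wnt target, had levels of -2.89 in PM2i-iPSC, 1.54 in OM2i-iPSC, -1.36 in ES cells and 0.22 in MEF. It was 21.4-fold lower in PM2i-iPSC on the junction probe shown above (difference -4.42, scanner error 0.23). On that probe PM2i-iPSC was the lowest and OM2i-iPSC the highest of the 4 arrays. A second probe had levels of -4.20 in PM2i-iPSC, not above background, and 1.10 in OM2i-iPSC, at least 39.4-fold apart. There MEF stood at 1.43, above OM2i-iPSC, and ES cells at -1.26. The third probe was not above background on either.

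Other targets in the same direction were measured less fully. Sp5, a transcription factor induced by Wnt, was 5.05-fold lower on its only probe (-1.01 against 1.32, with 0.93 in ES cells). Axin2, the feedback inhibitor that is used as the common Wnt reporter, was at least 4.50-fold lower (-5.11, not above background, against -2.42). Tnfrsf19, a receptor of the TNF family, was lower on both measured probes, by 3.34-fold and at least 7.79-fold. Znrf3, a ubiquitin ligase that removes Frizzled receptors, was the 1 target higher in PM2i-iPSC, by 3.16-fold.

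Secreted Wnt proteins and receptors followed a similar split, with 9 of 24 measured genes 2-fold lower in PM2i-iPSC and 4 higher. The receptor Fzd6 was 9.93-fold lower (-3.35 against -0.04), and the ligand Wnt7b was 6.47-fold lower (-3.46 against -0.76), each on its only probe. The ligand Wnt5b was lower on both of its probes, by 2.61-fold and 3.41-fold. Dkk1, the secreted inhibitor that blocks the Lrp co-receptors, ran the other way. Its level was -1.27 in PM2i-iPSC and -1.38 in ES cells, -3.18 in MEF and -6.82 in OM2i-iPSC, where it was not above background, a gap of at least 10.1-fold. The second Dkk1 probe was near background in both (-4.19 and -4.64) and gives a gap of at least 1.33-fold. Of 13 genes of the beta-catenin complex 2 were higher and 1 lower. Ctnnb1, which encodes beta-catenin, was 1.69-fold higher (1.09 against 0.34). Tcf7l2, a factor of the same family as Lef1, was 1.95-fold higher on its brightest probe and 3.52-fold, 6.85-fold and at least 11.3-fold higher on the others.

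**Figure D2:**
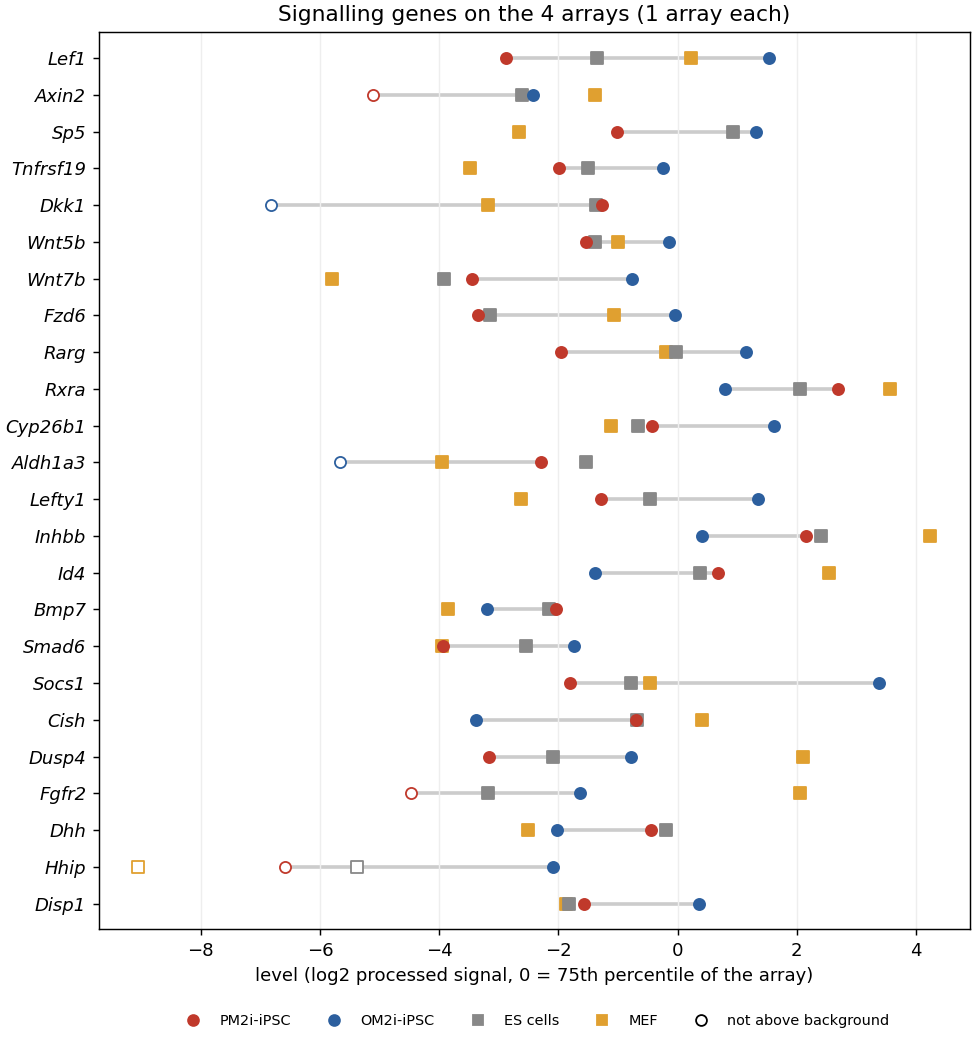
Levels of 24 signalling genes (rows) on the arrays of PM2i-iPSC (red circles), OM2i-iPSC (blue circles), ES cells (grey squares) and MEF (orange squares), in log2 units from each array's 75th percentile, on the gene's brightest probe with 1 array each; open symbols were not above background. In Lef1, Wnt7b, Fzd6 and Socs1 the blue circle is the rightmost symbol, and in Dkk1 and Cish it is the leftmost.

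Hedgehog genes, of the pathway that purmorphamine and certain oxysterols act on, were within 2-fold for Smoothened, Patched and Gli1. Smo (Smoothened) was 1.95-fold higher in PM2i-iPSC (2.62 against 1.66), Ptch1 (Patched, also a target) 1.56-fold higher and Gli1, the target used most as a readout, 1.28-fold higher (-2.92 against -3.27). Of 17 measured genes 2 were 2-fold higher and 5 lower, and none met the rule on several probes. Hhip, a decoy that binds Hedgehog ligands and is a target itself, had a level of -2.09 in OM2i-iPSC on its 1 measured probe. On that probe it was not above background in PM2i-iPSC, ES cells or MEF (at least 5.65-fold lower in PM2i-iPSC). The other Hhip probe was not above background in either preparation and had a level of -3.67 in ES cells. Gas1, a co-receptor, was at least 2.95-fold lower in PM2i-iPSC, where it was not above background (-6.58 against -3.03). Gli3, largely a repressor, was 2.85-fold lower in PM2i-iPSC (0.49 against 2.00). The other Gli3 probe was not above background in either preparation. The ligand Dhh was 2.97-fold higher (-0.45 against -2.02). Disp1, needed for ligand release, disagreed between probes, with the brightest 3.81-fold lower and the other at least 3.35-fold higher.

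Retinoid genes were lower in PM2i-iPSC for 6 of 13 measured members and higher for 2, with a median difference of -0.76, or -1.43 with the median over the probes of a gene. Rarg, a retinoic acid receptor, was 8.62-fold lower on its brightest probe (-1.96 against 1.15, with -0.03 in ES cells and -0.19 in MEF). On its other probe it was at least 28.6-fold lower. The enzymes that clear retinoic acid, Cyp26b1 and Cyp26a1, were 4.14-fold and at least 3.13-fold lower. Of the enzymes that make it, Aldh1a1 and Aldh1a2 were 3.79-fold and 3.62-fold lower, and Aldh1a3 was at least 4.94-fold higher. Rxra, the shared partner of retinoid and other nuclear receptors, was higher on both measured probes, by 3.68-fold and at least 3.51-fold. Genes for making and for sensing retinoic acid thus stood on both sides, and the 2 named clearing enzymes on 1.

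In the Nodal and activin pathway 6 of 17 measured genes were lower in PM2i-iPSC and 3 higher, none on several probes. Lefty1, a secreted Nodal inhibitor and Nodal target, was 6.19-fold lower (-1.29 against 1.34). Nodal itself was 1.49-fold lower, within 2-fold. BMP genes split, with 8 of 19 higher, 5 lower and a median difference of 0.00. Id4, an inhibitor of helix-loop-helix factors, was higher on both probes (4.19-fold and 2.74-fold), as were the ligand Bmp7 (2.25-fold and 3.32-fold) and, on 2 of 3 probes, the signal transducer Smad5 (2.18-fold on the brightest). The third Smad5 probe was 1.36-fold lower, and its brightest did not stay past 2-fold with the normexp background correction. Id3 was 4.50-fold lower (-2.22 against -0.05) and the inhibitor Smad6 4.60-fold lower, each on its only probe. The sister genes Id3 and Id4 thus pointed in opposite directions.

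Jak1, the kinase that relays the LIF signal, was higher in PM2i-iPSC on both probes, by 2.15-fold and 2.18-fold, although within 2-fold with the normexp background correction (0.83 on the log2 scale). Lifr, the LIF receptor, was 4.32-fold and at least 5.64-fold higher on 2 probes and 1.49-fold lower on its brightest. Socs1, a feedback inhibitor of Jak kinases, had a level of 3.37 in OM2i-iPSC against -1.80 in PM2i-iPSC, -0.78 in ES cells and -0.46 in MEF, 36.2-fold apart on its only probe. Cish, another inhibitor of that family, ran the other way by 6.37-fold on its only probe (-0.70 against -3.38, with -0.68 in ES cells). Stat3 was 1.08-fold apart and Socs3 1.5-fold higher in PM2i-iPSC. Dusp4, a phosphatase induced by ERK activity, was lower on both probes, by 5.21-fold and 5.74-fold. Of 22 measured genes of the FGF and MEK-ERK list, Dusp4 among them, 16 were within 2-fold. The shares of 9.09% higher and 18.2% lower were near those over all genes (12.5% and 17.0%). In the TGF-beta list 5 of 13 genes were lower, while the receptor Tgfbr2 was 6.93-fold higher. The other Tgfbr2 probes were not above background in either preparation. Notch4 was 7.99-fold higher on its only probe, the widest gap in a list where 12 of 15 were within 2-fold.

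Regulators that mark the exit from the naive state were split between lower and within 2-fold. Of 8 measured genes of the primed and formative list 5 were lower in PM2i-iPSC, of which Lef1 alone was lower on several probes. None was 2-fold higher, and the median difference was -1.15. Besides Lef1 they were Zic2 (at least 10.8-fold), Otx2 (3.69-fold, -2.31 against -0.43), the DNA methyltransferase Dnmt3a (2.38-fold on its brightest probe, with the other probes at -0.16 and at least 1.59 on the log2 scale) and Fgf5 (at least 2.08-fold). Zic2 and Fgf5 were not above background in PM2i-iPSC and entered through OM2i-iPSC alone, so they could not come out higher. The difference of Fgf5 was -1.06 (scanner error 1.45). Fgf5 did not stay past 2-fold with scaling on the median, quantile normalization or the normexp background correction. Among 12 naive-state regulators 1 was 2-fold higher (8.33%) and 2 were lower (16.7%), against 12.5% and 17.0% over all genes. The other 9 were within 2-fold, and the median difference was 0.50. Tcfcp2l1, a LIF-responsive naive factor, was higher on all 4 probes, by 1.98-fold, 2.91-fold, 4.16-fold and 3.25-fold. Tbx3 was at least 2.16-fold higher, and Dppa3 was 2.93-fold lower.

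Some single lineage regulators stood far apart. Cdx2, the caudal and trophoblast regulator, had a level of 0.41 in OM2i-iPSC, -3.25 in PM2i-iPSC and -3.05 in ES cells and was not above background in MEF, 12.6-fold apart on its only probe. Pax2, a regulator of kidney and midbrain development, was 16.8-fold higher in PM2i-iPSC (2.71 against -1.36) on its only probe. In PM2i-iPSC it also stood far above ES cells (-3.14) and MEF (-2.70). Tbx20, a cardiac factor, was at least 27.9-fold higher on its brightest probe and at least 3.0-fold higher on another. Lama1, the laminin chain of early basement membranes, was higher on both probes, by 8.96-fold and 9.15-fold.

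Hox genes, which set position along the body axis, differed in both directions: 10 of 28 measured members were lower in PM2i-iPSC and 3 higher, none on several probes. Hoxb3 stood at 0.57 in PM2i-iPSC, at least 35.1-fold higher, and was not above background in OM2i-iPSC or ES cells. Hoxa9 was 8.5-fold higher and Hoxa4 6.78-fold higher. Hoxa7 was at least 25.2-fold lower (0.06 in OM2i-iPSC, -0.85 in ES cells and 3.43 in MEF), and Hoxc5 was 9.83-fold lower. Each of these named Hox genes was measured on a single probe. Hoxa4, Hoxa7 and Hoxa9 belong to the same cluster and did not share a direction.

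Neuron and oligodendrocyte markers were lower in PM2i-iPSC for 8 of 18 measured members and higher for 1, with a median difference of -0.81 and 3 members lower on several probes. Snap25, of the synaptic vesicle machinery, was lower on 3 of 3 measured probes, by 3.59-fold, at least 3.43-fold and at least 6.91-fold, the last 2 on probes that share 40 bases. Sox10, an oligodendrocyte and neural crest factor, was 3.36-fold lower, and at least 4.72-fold lower on its second probe. Mobp, a myelin protein, was lower on all 3 probes, by 16.5-fold, at least 3.09-fold and 1.72-fold. With the normexp background correction the brightest probes of Snap25 and Sox10 were within 2-fold (-0.98 and -0.78 on the log2 scale). The summed level of the list was 19 in PM2i-iPSC, 41.2 in OM2i-iPSC, 14.8 in ES cells and 31.1 in MEF. The summed level of blood and endothelial markers was 12.5, 27.9, 9.74 and 10.2 in the same order, with 4 of 11 measured members lower in PM2i-iPSC and 1 higher. The higher member was Tek, an endothelial receptor, at 3.65-fold (0.17 against -1.70). The lower members included Cd34 (2.95-fold, 1.67 against 3.23) and Lmo2 (2.60-fold). Bright members such as Cd34 weigh most in a summed level. Ptprc and Cdh5, which define leukocytes and endothelium, were not above background in either preparation. Pecam1 and Hba-a1 of the same list were detected on both arrays. Pecam1 was within 2-fold (-2.18 against -2.84). Hba-a1 was lower in PM2i-iPSC on both probes, by 3.58-fold and 2.34-fold, but did not stay past 2-fold with the normexp background correction. Fewer cells of a type and less RNA per cell cannot be told apart in these bulk samples, and the part of other cell types in the results was not tested.

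**Figure D3:**
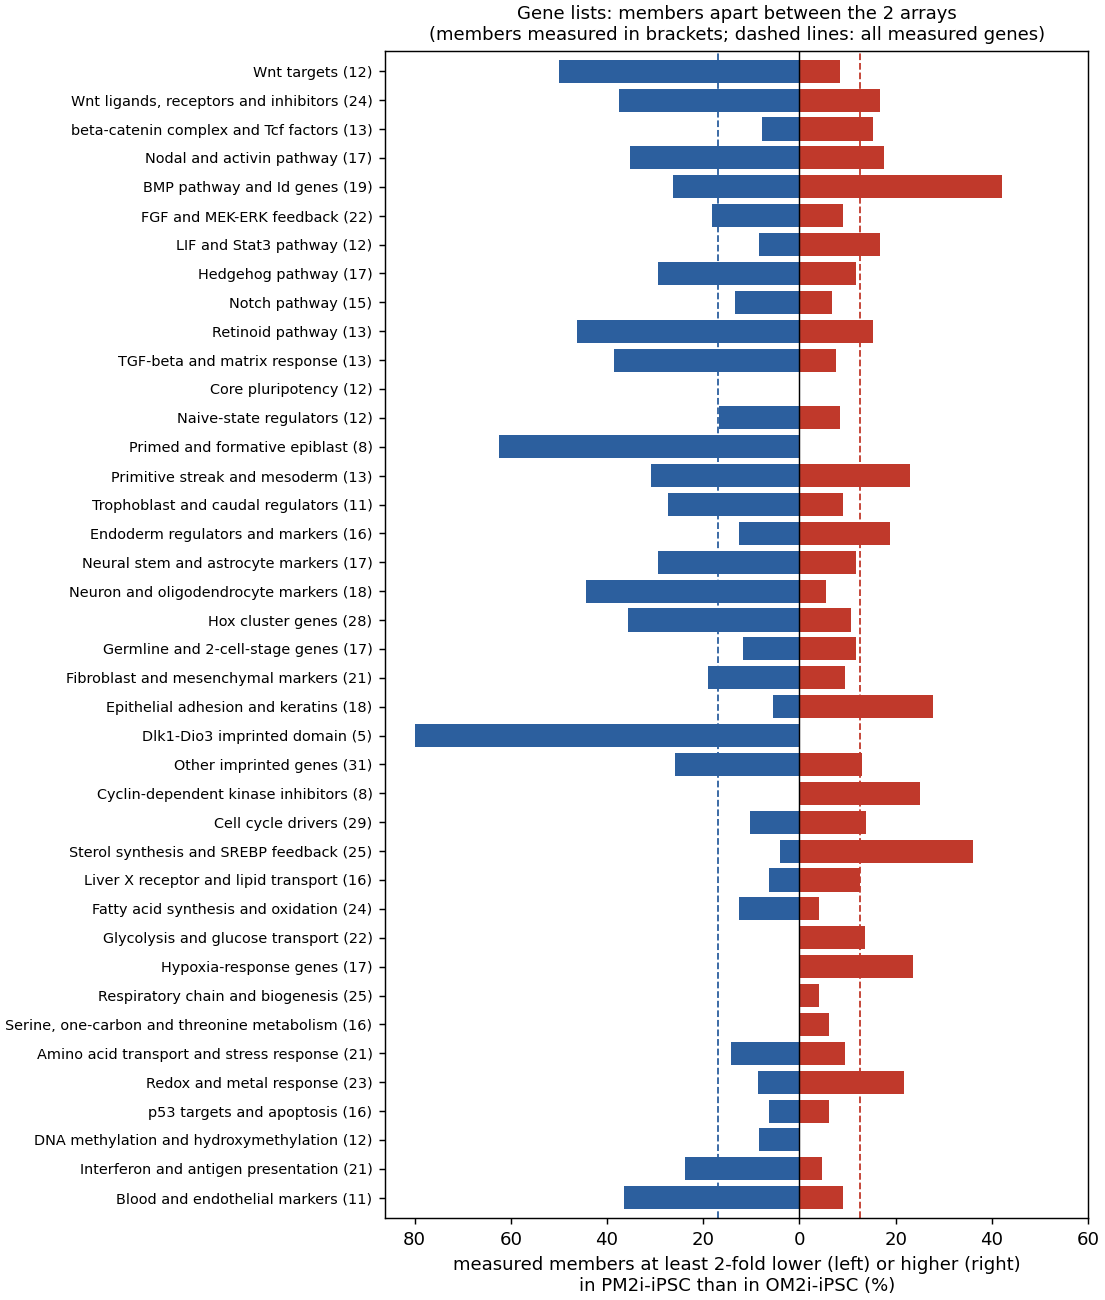
Share of measured members (number in brackets) of each of 40 gene lists that were at least 2-fold lower (blue, left) or higher (red, right) in PM2i-iPSC than in OM2i-iPSC; dashed lines give the shares over all measured genes, 17.0% lower and 12.5% higher. The Dlk1-Dio3, primed epiblast and Wnt target lists reach farthest to the left, and the BMP and sterol lists farthest to the right.

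In the Dlk1-Dio3 domain 4 of 5 measured genes were lower in PM2i-iPSC and the other was within 2-fold, with a median difference of -2.56. The median was -1.36 when signal above background on both arrays was required, which leaves out Rian and Mirg. Gtl2 was lower on 5 of 5 probes, by 5.88-fold to 35.9-fold. On its brightest probe its levels were -1.07 in PM2i-iPSC, 1.49 in OM2i-iPSC, -0.87 in ES cells and 3.01 in MEF. Both Rian probes were not above background in PM2i-iPSC and stood at 0.14 and 0.12 in OM2i-iPSC, at least 26.5-fold and 26.1-fold apart. Rian was not above background in ES cells either on the first of these probes. Mirg, on its only probe, had a level of 0.89 in OM2i-iPSC, -0.95 in MEF and -4.33 in ES cells and was not above background in PM2i-iPSC, at least 44.7-fold apart. On their brightest probes all 3 noncoding RNAs were lower in PM2i-iPSC and ES cells than in OM2i-iPSC and MEF. On 1 other Gtl2 probe MEF stood at -3.71, below ES cells at -3.07.

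The protein-coding genes of the domain, which are expressed from the paternal chromosome, stood closer. Dio3, a deiodinase of thyroid hormone, was 2.57-fold lower in PM2i-iPSC (-1.10 against 0.26), and Dlk1, a membrane-bound relative of the Notch ligands, was 1.47-fold lower (-2.70 against -2.14). Among 31 other imprinted genes 4 were higher and 8 lower. Igf2, the paternally expressed growth factor, was lower on both probes, by at least 7.82-fold and at least 3.96-fold, while its maternally expressed neighbour H19 was 1.06-fold apart (-3.38 against -3.29). Peg3, a paternally expressed zinc finger gene, was lower on both measured probes (3.92-fold and 2.23-fold). Copg2 was higher on 3 of 3 probes, 2 of which share 37 bases.

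**Figure D4:**
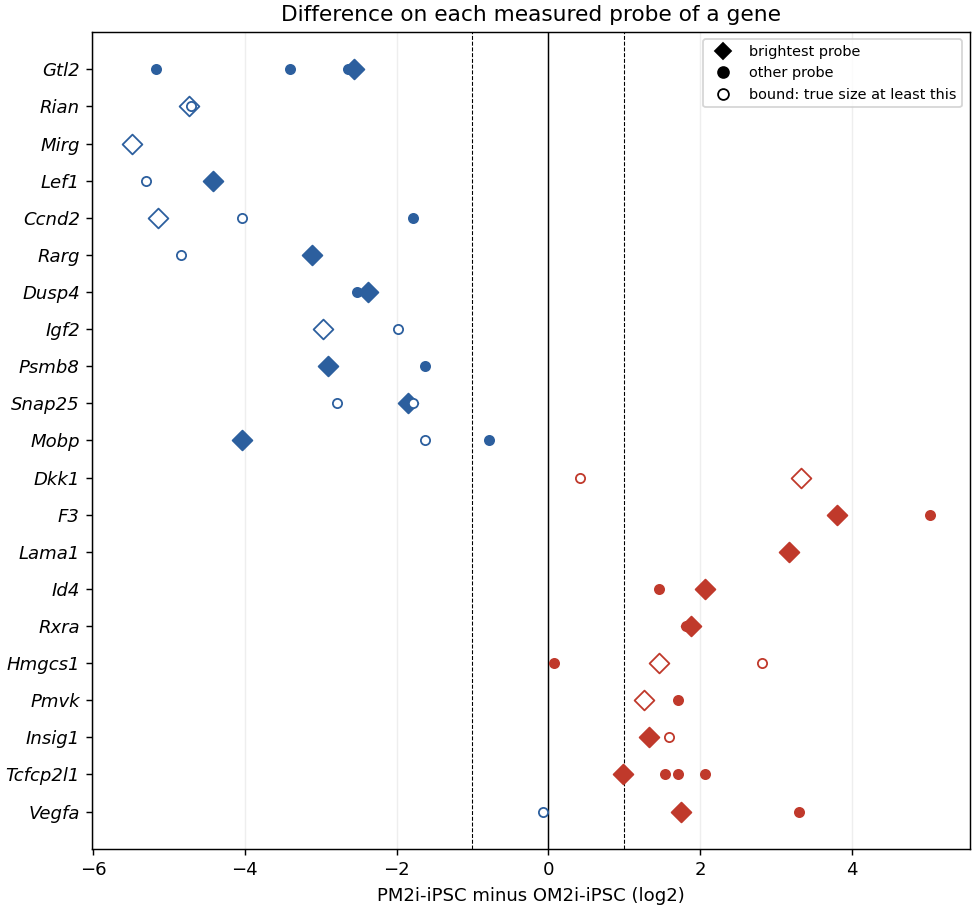
Difference between PM2i-iPSC and OM2i-iPSC (log2, x axis) on every measured probe of 21 genes (rows); diamonds are the brightest probe, circles the others, open symbols are bounds, and dashed lines mark 2-fold. All probes of Gtl2, Rian, Lef1 and Ccnd2 lie left of the lower line, while Dkk1, Hmgcs1 and Vegfa each hold a probe inside the 2-fold band.

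Cdkn1c (p57), an imprinted inhibitor of cyclin-dependent kinases, was 4.80-fold higher in PM2i-iPSC on its only probe, with levels of 2.27 in PM2i-iPSC, 0.01 in OM2i-iPSC, 1.20 in ES cells and 3.16 in MEF. Of 8 such inhibitors 2 were higher and none lower, the second being the phosphatase Cdkn3 on both measured probes. Ccnd2, the cyclin D2 that drives entry into S phase, was lower in PM2i-iPSC on 3 of 3 probes. Its brightest probe stood at -0.87 in PM2i-iPSC, 0.00 in ES cells and 4.12 in MEF and was saturated at 4.27 in OM2i-iPSC, at least 35.2-fold apart. The others gave at least 16.3-fold and 3.46-fold. Of 29 cell cycle drivers, Ccnd2 among them, 22 were within 2-fold. Their shares were 13.8% higher and 10.3% lower, against 12.5% and 17.0% over all genes. The brightest Cdk6 probe was 2.52-fold lower and another was 5.80-fold higher.

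Among the metabolic lists, sterol synthesis had the largest share of members apart. Of 25 measured genes 9 were 2-fold higher in PM2i-iPSC (36%) and 1 was lower, with a median difference of 0.51, and 3 were higher on several probes. Hmgcs1, which makes the precursor of mevalonate, was saturated at 4.06 in PM2i-iPSC and stood at 2.60 in OM2i-iPSC, at least 2.75-fold apart. Its other probes gave at least 7.0-fold and 1.06-fold. Insig1, the sterol-regulated brake on SREBP processing, was 2.51-fold higher, and at least 3.0-fold higher on its second probe. Pmvk was at least 2.39-fold and 3.27-fold higher on adjacent probes.

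Other higher members rested on the brightest probe alone. They included the kinase Mvk (3.1-fold, with 1.22-fold lower on its other probe), the demethylase Cyp51 (2.88-fold, with 1.73-fold and 1.36-fold higher on the others), the reductase Tm7sf2 (2.61-fold), the oxidase Sc4mol (2.29-fold) and the epoxidase Sqle (2.09-fold). Fdps was 2.47-fold lower, and 1.03-fold apart on its second probe. Srebf2, which encodes the SREBP that drives these genes, was saturated in both on its brightest probe. Its other measured probes were 2.11-fold higher in PM2i-iPSC (3.23 against 2.15) and 1.08-fold apart.

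The classic sterol regulatory element, searched as TCACNCCAC on both strands, was found in the promoter of 1 of the 17 measured sterol genes with an entry in the RefSeq promoter table (GRCm38.p6, 250 bases before to 50 after the start site). It was found in 1.24% of all 32851 promoters of that length. The match lies in Hmgcs1, 137 bases before the start site, in capitals in the following 60 bases of the plus strand.
Hmgcs1, chr13:119690189-119690248: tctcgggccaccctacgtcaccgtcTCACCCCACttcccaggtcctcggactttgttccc

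**Figure D5:**
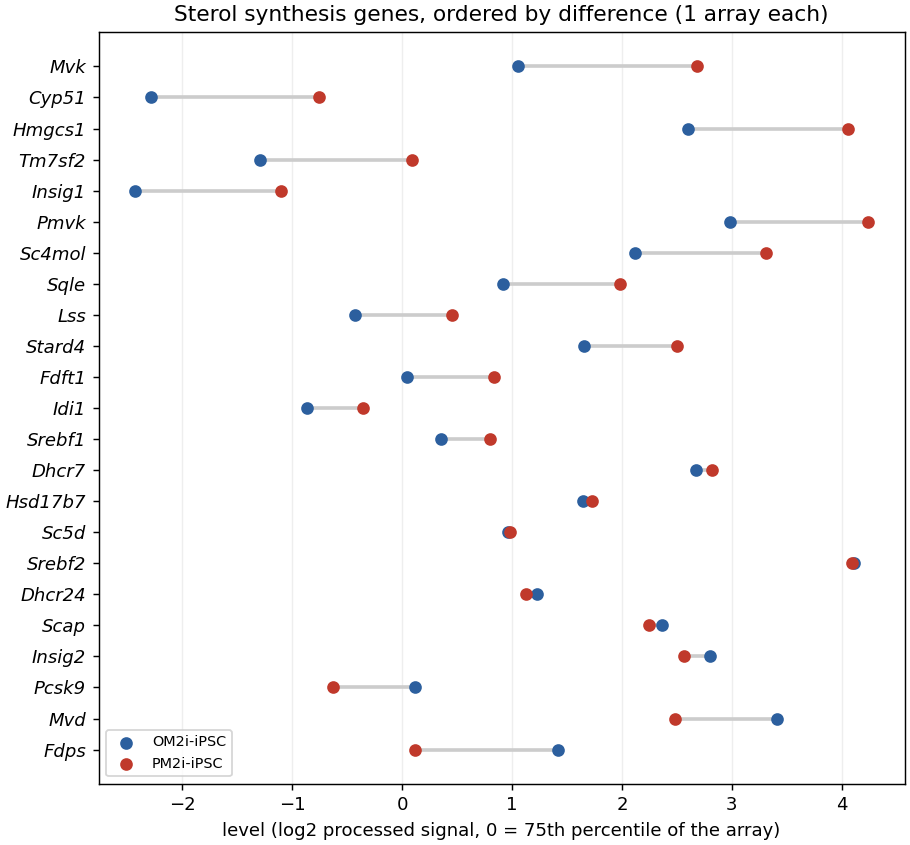
Levels of 23 of the 25 measured sterol synthesis and SREBP genes (rows, ordered by difference) in PM2i-iPSC (red) and OM2i-iPSC (blue), in log2 units from the 75th percentile of each array, on the brightest probe with 1 array each. The red point lies right of the blue point from Mvk to Sc5d and left of it from Srebf2 to Fdps.

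Of 16 measured genes of the liver X receptor and lipid transport list 2 were higher in PM2i-iPSC and 1 lower, near the share over all genes. The cholesterol exporter Abca1 was 2.90-fold higher (-1.89 against -3.43), and the lipase Lpl was 5.31-fold lower (0.14 against 2.55). Of 24 fatty acid genes 20 were within 2-fold, with 4.17% higher and 12.5% lower, against 12.5% and 17.0% over all genes. Pparg, the regulator of fat cell formation, was 5.41-fold lower, and Acsl1, which activates fatty acids, was 1.78-fold higher on its brightest probe and 9.67-fold and 11.1-fold higher on the other 2.

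Few genes of energy metabolism were 2-fold apart. Of 22 glycolysis genes 3 were higher in PM2i-iPSC, near the share over all genes, and none was lower. They included Eno3 (3.85-fold) and the hexokinase Hk2 (2.45-fold, 3.73 against 2.44). Of 17 hypoxia-response genes 4 were higher and none lower. Vegfa, the vascular growth factor, was 3.37-fold and 9.88-fold higher on 2 probes and close to background on the third, and Epas1 (Hif2a) was 3.26-fold and at least 4.51-fold higher. Of 25 respiratory chain genes 24 were within 2-fold. In the redox list 5 of 23 were higher and 2 lower, and the higher ones included the glutathione genes Gclm (2.80-fold) and Gclc (2.09-fold). Of 21 measured interferon and antigen presentation genes 5 were lower in PM2i-iPSC and 1 was higher. The higher one was Ifitm3, by 7.28-fold (4.11 against 1.25) on its only probe. The immunoproteasome subunit Psmb8 was lower on both probes, by 7.47-fold and 3.09-fold.

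Genes that met the rule on several probes were ranked by the measured probe with the smallest gap. Names of clones, predicted genes and loci were left out. The 10 highest in PM2i-iPSC were F3, Lama1, Odf1, Ank1, Ppp4c, Hspb2, Ptpn12, Serpinb1c, Mpp5 and Mpped2. F3 (tissue factor, which starts blood clotting) was 14.0-fold and 32.5-fold higher on probes whose positions overlap by 20 bases, with levels of 0.15 in PM2i-iPSC, -3.66 in OM2i-iPSC, -1.95 in ES cells and 0.77 in MEF on the brightest. Hspb2, a small heat shock protein, was 22.1-fold and 5.99-fold higher. The 10 lowest were Rian, Cited4, Lef1, St8sia3, Prok2, Rarg, Rhbdl3, Nsg1, Nefl and Rshl1. Cited4, a transcriptional coactivator, was at least 31.3-fold and at least 21.8-fold lower. Nefl, the light chain of neurofilaments, was at least 18.9-fold and 6.16-fold lower. The probes of St8sia3 share 40 bases, those of Ptpn12 share 40 and those of Rhbdl3 share 50, so their pairs are not separate readings.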

How the data were processed

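Total RNA was extracted with Trizol and labelled with Cy3, per the labels' protocols. The Agilent files hold spot intensity, extracted with Feature Extraction 10.7.3.1 (9.5.3.1 for MEF), per the file headers; the deposited table holds the same intensity, rounded. Groups came from sample titles and source names. Control spots and outlier spots were left out and spots of a probe averaged. Log2 of the processed signal minus the array's 75th percentile was taken here, and a gene took the value of its brightest probe. Where a side was not well above background, its level was raised to the lowest level well above background on that array. Gene names, coordinates and oligonucleotide sequences came from the MEF file (mm7). Of the 41174 probes, 8458 matched no RefSeq name, and 16 list genes were found through RefSeq under another name. The MEF array was read with another software version.

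The members and the 40 lists were chosen with earlier results of these data known. Genes named were the 4 markers, up to 4 members of each list past 2-fold, those on several probes first, and the 10 highest and 10 lowest over all genes on several probes. The 10 highest and 10 lowest leave out names of clones, predicted genes and loci. Other named members were chosen after their values were seen. Counting was tested on simulated data. Python 3.11.15, pandas 2.3.3 and limma 3.58.1 were used. Some members of the lists are counted but not reported here by name.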

Additional observations from a re-analysis of the deposited data

How the results depend on the processing

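No paired analysis was possible because each preparation has 1 array. Of 172 named genes past 2-fold, 165 stayed past it in the same direction with scaling on the median, 168 with quantile normalization, 152 with normexp (the losses include Snap25 and Sox10), 172 with the deposited table, 156 with the median over probes and 172 with names updated through RefSeq. Requiring signal above background on both arrays left 137, the losses being the genes given only as a bound, such as Mirg, Rian, Dkk1 and Axin2. It also left 189 genes higher and 181 lower on several probes, and moved the median of the Dlk1-Dio3 list to -1.36 and of blood and endothelial markers from -0.49 to -1.11, since fewer genes entered. The median over probes moved the retinoid list to -1.43. Scaling on the median moved the median of all genes from -0.08 to 0.03, and the share of 2-fold genes that were higher in PM2i-iPSC from 42.4% to 50.3% (48.3% with quantiles). None of these 172 genes changed sign under these alternatives, while some named genes within 2-fold and list medians near 0 did, such as H19 (-0.09 to 0.03 with scaling on the median) and the Hedgehog list (-0.19 to 0.09 above background on both arrays). Normexp was run on median signals, and its losses also include Fdps, Fgf5, Gclc, Jak1, Smad5 and Sqle. Subtracting the medians of 40 blocks of the array surface (-0.41 to 0.26), added after the data were seen, kept 167 of the 172. With 1 array per preparation, precision is limited by that number.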
